A study of Homo sapiens with 2 samples.

Results

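The genes described are the expressed ZNF genes, which encode zinc finger proteins of the ZNF symbol series, together with RBAK. They are the rows of the deposited table whose symbol is ZNF followed by digits and at most 1 letter, or is RBAK, and whose counts in both libraries sum to 300 or more. Of 442 rows with such a symbol, 211 reached this minimum, in a table of 23376 genes of which 9751 reached it. The choice used summed counts, and ZNF33B and RBAK were already known to lie far apart in these libraries, so every ratio below is a description. The 3 rows just inside the minimum were ZNF235, with 187 counts in control cells and 114 in GGT7 cells, ZNF564, with 197 and 104, and ZNF574, with 195 and 106. Just outside it were ZNF283, with 148 and 151 counts, ZNF444, with 212 and 87, and ZNF614, with 203 and 96. The 231 rows below the minimum had a median summed count of 123 and held 29942 counts in all, against 207425 in the 211 genes above it.

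The RNA came from AGS, a long-established cell line of human gastric adenocarcinoma, grown in DMEM with 10% fetal bovine serum. The control group was labelled WT and carried a negative control plasmid, and the other carried a plasmid for ectopic expression of GGT7, a gamma-glutamyltransferase family member. Both were stable transfections labelled 2 weeks, and the labels do not say whether a line was 1 clone or a pool. Each group had 1 library, of 13482913 counts for the control and 10289206 for GGT7, and pairs of values below give the control first.

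With 1 library per group the spread between cultures was not measured and no test of groups was possible. A ratio is the GGT7 count per library total over that of the control, which equals the ratio of the deposited FPKM (fragments scaled by transcript length and library total), and its exact conditional 95% interval covers counting error only. GGT7 itself had 90 and 470 counts, or 1.78 and 12.2 FPKM, a ratio of 6.84 (5.45 to 8.67). Of 10 epithelial markers 8 were in the table, led by KRT18 at 111 and 117 FPKM, KRT7 at 82.9 and 101, and KRT8 at 70.0 and 45.4, while EPCAM stood at 2.29 and 1.57 FPKM. Their ratios ran from 0.649 for KRT8 to 1.47 for CLDN7, and their summed level was 299 and 293 FPKM, against 0.313 and 0.429 for 3 immune markers, 2.25 and 2.04 for 3 endothelial markers, and 7.6 and 5.70 for 3 fibroblast markers.

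C2H2 zinc finger proteins read DNA through arrays of fingers, short folds that each hold a zinc ion between a pair of cysteines and a pair of histidines. Many human members also carry a KRAB box, a short domain that binds TRIM28; TRIM28 in turn brings the H3K9 methyltransferase SETDB1 and HP1 proteins, and such complexes are best known for silencing transposable elements. A large share of these genes lies in clusters on chromosome 19, where they arose by repeated duplication. RBAK is a KRAB zinc finger protein that was found through its binding to RB1 and that represses E2F-dependent promoters.

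ZNF33B and ZNF33A are near copies on chromosome 10, and their sequences are shown because reads of one copy can be assigned to the other. ZNF33A lies at chr10:38010650-38065088 on the plus strand and ZNF33B at chr10:42574185-42638568 on the minus strand of GRCh38. The 2 lines that follow are the aligned 240 coding bases with most differences, 13 in number, at chr10:38054500-38054739 for ZNF33A and chr10:42594335-42594574 for ZNF33B. Capitals mark the bases that differ between the copies, each taken from GENCODE 29 transcripts and read 5′ to 3′ on its own coding strand.
ZNF33A: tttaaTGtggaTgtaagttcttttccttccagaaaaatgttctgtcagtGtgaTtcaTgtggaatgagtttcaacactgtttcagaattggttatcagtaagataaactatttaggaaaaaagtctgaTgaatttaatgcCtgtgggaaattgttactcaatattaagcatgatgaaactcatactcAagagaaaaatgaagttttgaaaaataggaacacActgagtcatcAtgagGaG
ZNF33B: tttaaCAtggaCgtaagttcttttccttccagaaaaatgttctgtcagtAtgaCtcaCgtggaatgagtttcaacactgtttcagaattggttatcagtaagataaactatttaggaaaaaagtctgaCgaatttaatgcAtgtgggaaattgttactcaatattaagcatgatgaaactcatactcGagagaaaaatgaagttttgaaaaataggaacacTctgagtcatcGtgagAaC

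A stretch in the finger array had the fewest differences, 4 in 240 bases, or 98.3% identity. It lies at chr10:38055868-38056107 in ZNF33A and chr10:42592967-42593206 in ZNF33B, with capitals as before.
ZNF33A: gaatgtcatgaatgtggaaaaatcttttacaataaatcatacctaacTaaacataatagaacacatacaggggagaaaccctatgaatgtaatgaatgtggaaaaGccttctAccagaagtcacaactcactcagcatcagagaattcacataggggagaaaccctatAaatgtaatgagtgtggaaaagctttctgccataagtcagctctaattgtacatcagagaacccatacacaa
ZNF33B: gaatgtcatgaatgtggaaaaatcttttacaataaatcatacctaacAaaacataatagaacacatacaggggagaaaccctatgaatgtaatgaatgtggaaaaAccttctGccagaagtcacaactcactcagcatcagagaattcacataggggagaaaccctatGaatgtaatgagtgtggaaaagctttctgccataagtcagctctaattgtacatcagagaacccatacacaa

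Over the whole coding sequence, 92 of 2333 aligned bases differed, an identity of 96.1%, and the longest run without a difference was 134 bases. The proteins of 829 residues for ZNF33A and 778 for ZNF33B had 716 identical residues among 778 aligned, or 92.0%, and 17 fingers each. Of all 50-base stretches in the annotated transcripts of ZNF33B, 6.59% also occurred in those of ZNF33A, and 7.17% of those of ZNF33A occurred in ZNF33B. The other stretches of that length differ between the copies.

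ZNF33B, a KRAB zinc finger gene without a well described target, had 60 and 585 counts. Its level was 0.472 and 6.04 FPKM, a ratio of 12.8 (9.78 to 16.96). It stood at rank 3 of the 9751 genes at the minimum when these are ordered from the highest ratio. In bulk RNA, more cells that express a gene and more RNA per cell cannot be told apart.

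ZNF33A, its near relative, had 672 and 635 counts. Its level was 2.42 and 2.998 FPKM, a ratio of 1.24 (1.11 to 1.38). By counts ZNF33A was the higher in both libraries, while the order by FPKM differed between them. ZNF33A was the higher by 5.12-fold in FPKM in the control, and ZNF33B was at 2.01 times the FPKM of ZNF33A in the GGT7 library. This order rests on the gene lengths behind the deposited FPKM, which are not given in the files, and the annotated exonic lengths of 8307 bases for ZNF33B and 7523 for ZNF33A would not give it. ZNF33B made up 8.20% and 48.0% of the counts of the pair. Relative to ZNF33A, ZNF33B was 10.3-fold higher in the GGT7 library (7.71 to 13.98). The counts of both copies together were 732 and 1220, a ratio of 2.18 (1.99 to 2.40). This sum does not depend on how reads counted once were divided between the copies. Whether reads that match both copies were dropped or counted for each is not known.

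Genes around the copies are given by value, since nearly any gene has a lower ratio than ZNF33B, at rank 3 of 9751. Within 500 kb of ZNF33B, 4 other genes reached the minimum, with ratios from 0.638 to 1.06. The nearest, the pseudogene ZNF37BP, had 1382 and 673 counts and was 1.57-fold lower in the GGT7 library. Near ZNF33A, ZNF248 had a ratio of 0.711 and ZNF37A of 0.888. No other annotated gene shared 100 or more exonic bases with ZNF33B.

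In 9 pairs of genes of the set, at least 5% of the 50-base stretches of either gene were shared, and the median gap between their log2 ratios was 0.75. The gap of the ZNF33 pair was 3.37. The next was ZNF320 against ZNF468 on chromosome 19, at 1.02, where ZNF320 had a ratio of 1.34 and ZNF468 of 0.658; these share 69.4% of the stretches of ZNF320 and 52.5% of those of ZNF468, so their counts are uncertain. ZNF227 and ZNF235, whose exons overlap, lay closest together, at a gap of 0.04. ZNF320 with ZNF468, ZNF394 with ZNF789 and ZNF701 with ZNF808 also overlap in exons, unlike the ZNF33 copies. Such pairs can share stretches through that overlap, so the median gap does not describe separate near copies alone.

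RBAK, the RB-binding repressor, had 126 and 924 counts. At 0.849 and 8.15 FPKM its ratio was 9.61 (7.97 to 11.7), at rank 6 of 9751. It lies at chr7:5045821-5069488 on the plus strand. The read-through gene RBAK-RBAKDN shares 391 exonic bases with it and had 16 and 6 counts. The 7 genes at the minimum within 500 kb had ratios from 0.679 for ACTB, which encodes beta-actin, to 1.14 for TNRC18.

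The RB and E2F genes are given by RNA alone, as protein was not measured. All had ratios below that of RBAK, as nearly all genes do, since RBAK stood at rank 6 of 9751. RB1, the retinoblastoma protein gene, had 2023 and 1629 counts, a ratio of 1.06. E2F1 had a ratio of 1.01, and the 10 genes of the RB and E2F list had a median log2 ratio of 0.07. E2F3 was the farthest of them, with 546 and 948 counts, 3.20 and 7.29 FPKM, and a ratio of 2.28. At the other end of the list E2F5 had a ratio of 0.935.

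**Figure D1:**
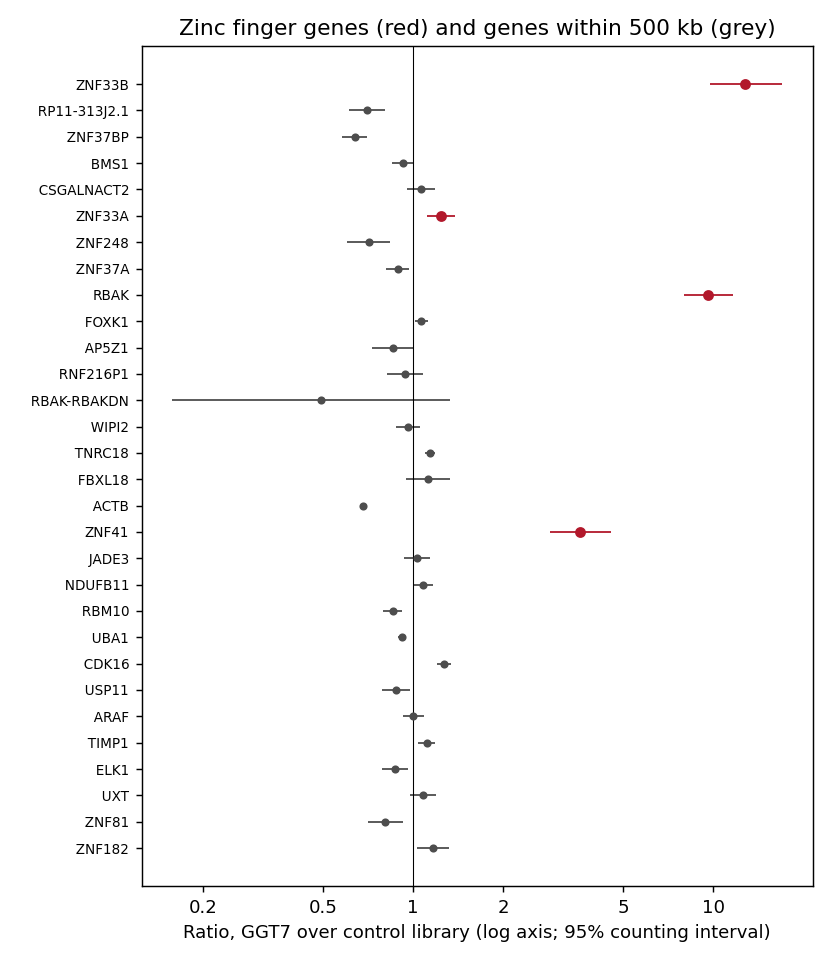
Ratio of the GGT7 to the control library (log axis, 95% counting interval as bars) for ZNF33B, ZNF33A, RBAK and ZNF41 in red and for genes within 500 kb at the count minimum, with RBAK-RBAKDN, in grey below each. ZNF33B at 12.8 and RBAK at 9.61 were known beforehand to lie far apart. Their neighbours have ratios between 0.638 and 1.14, apart from RBAK-RBAKDN, which rests on 22 counts.

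Promoters of the ZNF33 copies and RBAK are shown as the places where ZNF33A and ZNF33B could differ in start and in motifs. Each is 300 bases, 250 before and 50 after the RefSeq start on GRCh38.p14, read 5′ to 3′ on the strand of the gene. They lie at chr10:38010425-38010724 (plus) for ZNF33A, chr10:42638521-42638820 (minus) for ZNF33B and chr7:5045610-5045909 (plus) for RBAK. Capitals mark matches to CCAAT or to GCGCATGC on either strand.
ZNF33A: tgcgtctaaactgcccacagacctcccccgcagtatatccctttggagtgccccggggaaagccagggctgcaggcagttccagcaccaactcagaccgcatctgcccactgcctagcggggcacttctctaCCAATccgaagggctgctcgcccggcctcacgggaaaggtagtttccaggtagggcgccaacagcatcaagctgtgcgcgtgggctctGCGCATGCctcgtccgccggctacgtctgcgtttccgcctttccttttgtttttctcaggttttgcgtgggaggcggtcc
ZNF33B: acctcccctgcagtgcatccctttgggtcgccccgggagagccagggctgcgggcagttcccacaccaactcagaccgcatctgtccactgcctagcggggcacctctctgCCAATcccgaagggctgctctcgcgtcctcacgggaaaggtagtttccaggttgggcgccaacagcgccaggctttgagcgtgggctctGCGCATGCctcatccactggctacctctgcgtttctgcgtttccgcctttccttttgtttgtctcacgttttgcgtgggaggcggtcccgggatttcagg
RBAK: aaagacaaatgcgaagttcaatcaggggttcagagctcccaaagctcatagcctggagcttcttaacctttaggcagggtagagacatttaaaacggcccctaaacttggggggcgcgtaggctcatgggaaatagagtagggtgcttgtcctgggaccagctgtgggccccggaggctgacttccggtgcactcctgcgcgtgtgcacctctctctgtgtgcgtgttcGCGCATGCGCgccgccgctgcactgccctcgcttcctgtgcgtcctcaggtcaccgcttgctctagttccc

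The ZNF33A and ZNF33B promoters were 90.0% identical over 279 aligned bases, and each held 1 match to CCAAT and 1 to GCGCATGC. In RBAK, 2 matches to GCGCATGC, 1 on each strand, overlap in the capitals. GCGCATGC was searched for after reading these promoters; it occurred in 3.05% of all 35116 RefSeq promoter windows and in 6% of the 250 windows that matched genes of the set by symbol. CCAAT occurred in 34.6% and 40.4% of them. The ATF4-type composite TGATGNAA, the cAMP-response element TGACGTCA and the E-box CACGTG had no match in the 3 promoters; they occurred in 3.62%, 1.85% and 7.26% of all windows and in 1.2%, 4.4% and 6.4% of those of the set. A match is a run of letters and not a measured site. The median number of CpG dinucleotides was 14 over all windows and 22 over those of the set. The windows of the set came from 186 of its symbols. The full group of windows was not limited to expressed genes, so these shares and medians do not compare like sets.

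Of the 211 genes, 5, or 2.37%, had at least 2-fold more in the GGT7 library, which held for 0.995% of all 9751 genes at the minimum. This count holds ZNF33B and RBAK, which were known to lie apart; without them it was 3 of 209, or 1.44%. All 5 carry a KRAB box by pattern, as do 111 of the 211 genes. Besides ZNF33B and RBAK these were ZNF41, ZNF331 and ZNF674. ZNF41, a KRAB gene on the X chromosome (chrX:47445879-47482946, minus strand), had 101 and 278 counts. At 1.39 and 5.0025 FPKM its ratio was 3.61 (2.86 to 4.58). None of its 50-base stretches occurred in another gene, and 12 genes within 500 kb had ratios from 0.808 to 1.26.

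ZNF331, a KRAB gene on chromosome 19 (chr19:53519527-53580269, plus strand) that is known as an imprinted gene, had 554 and 987 counts. At 2.35 and 5.48 FPKM its ratio was 2.33 (2.10 to 2.60), and only 0.410% of its stretches occurred elsewhere. ZNF674 (chrX:46497727-46545457, minus strand) had 136 and 211 counts. At 1.13 and 2.30 FPKM its ratio was 2.03 (1.63 to 2.54), an interval that reaches below the 2-fold rule. It shares 6.71% of its stretches with its neighbour KRBOX4, whose ratio was 1.11.

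A further 5 genes were between 1.5-fold and 2-fold higher, which makes 10, or 4.74%, and 8 of 209, or 3.83%, without ZNF33B and RBAK, against 3.92% of all genes. ZNF354A, a KRAB gene with 28.3% of its stretches in other genes, had 180 and 264 counts and a ratio of 1.92. ZNF185, which encodes an actin-associated LIM domain protein and has no C2H2 finger, had 287 and 387 counts and a ratio of 1.77. ZNF518A had 136 and 170 counts and a ratio of 1.64. ZNF598, the ubiquitin ligase that marks collided ribosomes, had 890 and 1081 counts and a ratio of 1.59. ZNF281, a transcription factor studied in stem cells and in epithelial-mesenchymal transition, had 694 and 836 counts and a ratio of 1.58.

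On the other side, 3 genes, or 1.42%, were 2-fold or more lower, against 1.07% of all genes. The counting interval of each of the 3 reached below the 2-fold rule. ZNF717, a KRAB gene on chromosome 3, had 284 and 86 counts. Its level was 2.76 and 1.10 FPKM, 2.52-fold lower (1.97 to 3.25). ZNF322, without a KRAB box, had 297 and 102 counts. It stood at 1.69 and 0.759 FPKM and was 2.22-fold lower (1.77 to 2.81), and 19.6% of its stretches occurred in the pseudogene ZNF322P1, so its count is uncertain. ZNF385A, an RNA-binding protein that also acts with p53, had 922 and 346 counts. At 5.97 and 2.94 FPKM it was 2.03-fold lower (1.80 to 2.31).

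At the 1.5-fold rule 21 genes were lower, or 9.95%, against 4.78% of all genes. They included ZNF35, with 261 and 105 counts, ZNF654, with 297 and 123, and ZNF780B, with 278 and 120, which were 1.90-fold, 1.84-fold and 1.77-fold lower. ZNF622, a factor of large ribosomal subunit assembly, had the highest FPKM of the set in the control, with 35.6 and 21.2 FPKM from 816 and 370 counts. Of the 21 genes, 12 carry a KRAB box and 7 lie on chromosome 19, where the whole set of 211 has 111 and 69. The share 1.5-fold lower went with the count. From 300 to under 500 summed counts it was 17.6% of the set, against 7.70% of other genes. From 500 to under 1000 it was 6.98% against 5.41%, and at 1000 or more 5.26% against 3.49%.

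**Figure D2:**
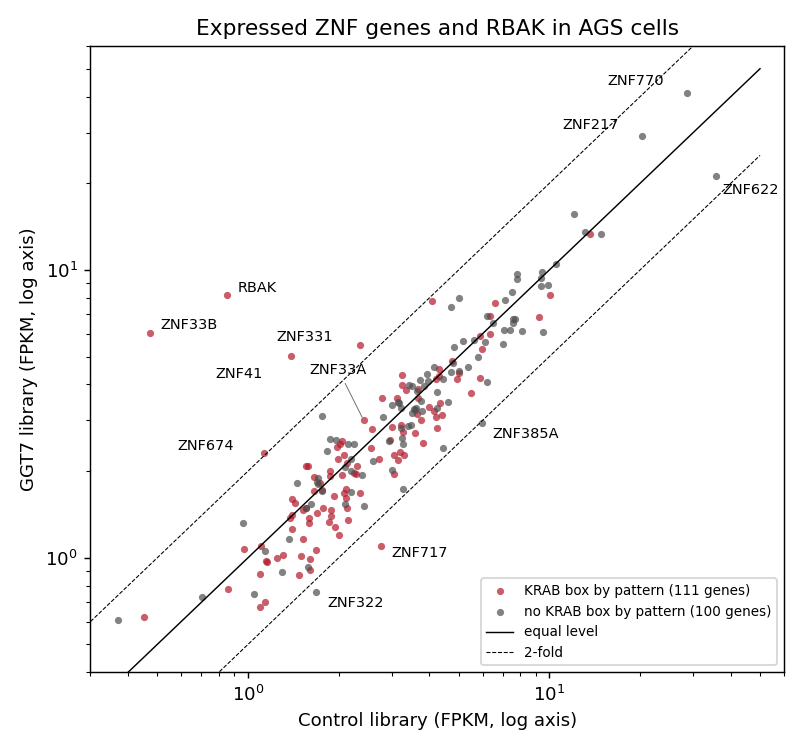
Level of each of the 211 genes in the control (x) and GGT7 (y) libraries in FPKM, both axes on a log scale, 1 point per gene, coloured by KRAB box. ZNF33B and RBAK lie far above the upper dashed 2-fold line, at 6.04 and 8.15 FPKM in the GGT7 library, while 180 genes lie within 1.5-fold of the solid line of equal level.

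Together the 211 genes held 0.876% and 0.868% of all counts, and 0.875% and 0.854% without ZNF33B and RBAK. The median level of the 211 genes was 3.05 and 2.72 FPKM. In 180 of them, or 85.3%, the ratio lay within 1.5-fold of 1, against 91.3% of all genes at the minimum. The median log2 ratio was −0.11, with quartiles at −0.33 and 0.13, where all genes at the minimum had −0.03. A ratio below 1 was found in 131 genes, or 62.1%, against 54.7% of all genes, and in 81 genes, or 38.4%, the counting interval lay below 1, against 31.3%. The interval lay above 1 in 37 genes, or 17.5%, against 24.1%. These shares depend on the count. By summed count (300 to under 500, 500 to under 1000, and 1000 or more) it lay above 1 in 10.3%, 11.6% and 35.1% of the set. Other genes in these ranges had 16.9%, 19.1% and 28.7%. It lay below 1 in 36.8%, 40.7% and 36.8% of the set, against 24.6%, 27.6% and 34.5% of other genes. The median of the set was 0.08 below that of the other 9540 genes on the log2 scale, a gap that a scaling of the libraries cannot alter, and 0.07 below it after a trend with GC content and length was removed.

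**Figure D3:**
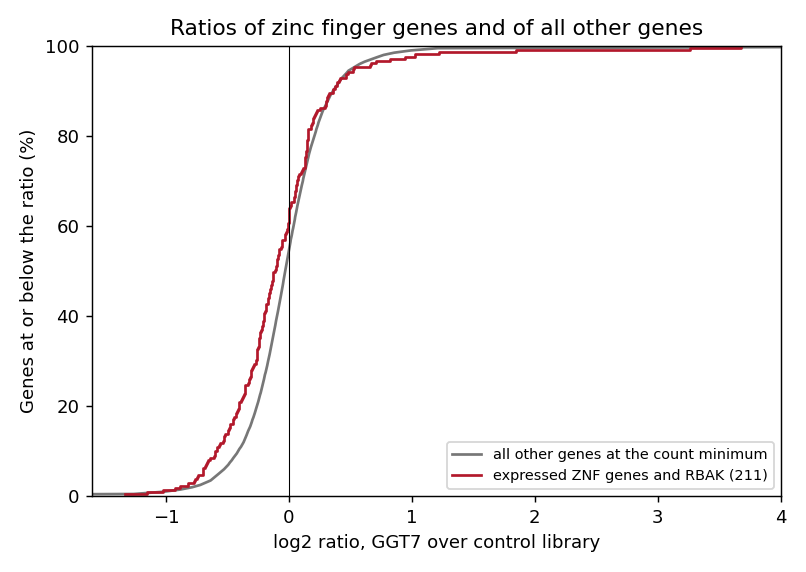
Percentage of genes at or below each log2 ratio of the GGT7 over the control library, for the 211 genes in red and the other genes at the count minimum in grey. The red curve lies above the grey one over most of the range left of 0, with medians of −0.11 and −0.03, and its upper end holds RBAK at 3.26 and ZNF33B at 3.68.

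The offset went with the count of the genes. The 68 genes with summed counts from 300 to under 500 had a median log2 ratio of −0.15, the 86 with 500 to under 1000 of −0.16, and the 57 with 1000 or more of 0.018. Other genes in the same ranges had medians of −0.04, −0.04 and −0.03. ZNF638, a nuclear protein known to act with the HUSH silencing complex, had the highest summed count, with 4420 and 3032 counts and a ratio of 0.899 (0.858 to 0.942). ZNF106, with 3918 and 3077 counts, had a ratio of 1.03 (0.981 to 1.08). ZNF451, a SUMO ligase, had 2844 and 2035 counts and a ratio of 0.938 (0.885 to 0.993).

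The other 2 of the 5 genes with most counts stood higher in the GGT7 library. ZNF217, an oncogene candidate that is amplified in breast and other carcinomas, had 3187 and 3495 counts. Its level was 20.3 and 29.2 FPKM, a ratio of 1.44 (1.37 to 1.51). ZNF770 had 2320 and 2553 counts, 28.7 and 41.3 FPKM, and the same ratio of 1.44 (1.36 to 1.53).

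Several genes were named for known roles after their values were seen, so their ratios do not stand for genes with known roles in general. ZNF91, which silences SVA retrotransposons, had 741 and 649 counts and a ratio of 1.15 (1.03 to 1.28). ZNF274, which binds the 3′ ends of zinc finger genes and recruits SETDB1 there, had 218 and 150 counts and a ratio of 0.902 (0.727 to 1.12). ZNF143, a promoter-binding activator, had 361 and 242 counts and a ratio of 0.878 (0.743 to 1.04). ZNF207, a spindle assembly protein, had 2476 and 1895 counts and a ratio of 1.00 (0.944 to 1.07).

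A KRAB box was found by pattern in 111 of the genes, whose median log2 ratio was −0.19, and in 100 it was not found, with a median of −0.09. Each of the 5 genes 2-fold higher was in the first group, although that group had the lower median, and 1 of the 3 genes 2-fold lower was. After removal of the GC and length trend the medians were −0.16 and −0.004. The pattern misses atypical boxes, so the second group can hold some KRAB genes.

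The median also differed by the number of C2H2 fingers counted in the reference protein. It was 0.05 for the 27 genes with 1 to 4 fingers, −0.10 for the 66 with 5 to 9, −0.19 for the 64 with 10 to 14, and −0.21 for the 45 with 15 or more. Over 208 genes, which share 2 libraries, Spearman's rho was −0.17 and Pearson's r −0.025; without ZNF33B and RBAK they were −0.19 and −0.10. Within the longest class the ratios still ran from 12.8 for ZNF33B to 2.52-fold lower for ZNF717. The 6 genes in which no finger was found had a median of 0.05, from ZNF185 at 1.77 to ZNF703, a luminal breast cancer gene, at 1.28-fold lower.

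**Figure D4:**
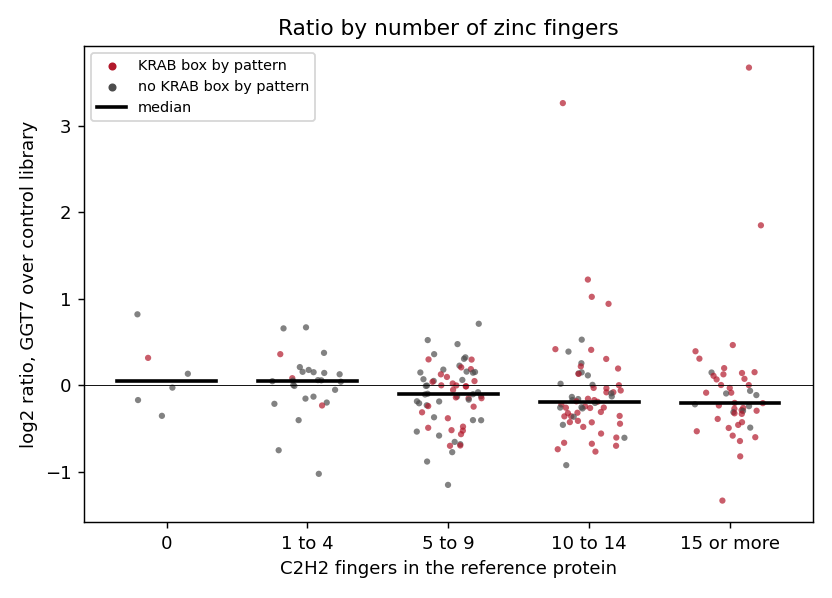
Log2 ratio of the GGT7 over the control library for the 208 protein-coding genes by number of C2H2 fingers in the reference protein, 1 point per gene (sideways spread arbitrary), red with and grey without a KRAB box, with the class median as a bar. The medians go from 0.05 for 1 to 4 fingers to −0.21 for 15 or more, and the points at 3.26 and 3.68 are RBAK and ZNF33B.

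By chromosome, the 69 genes on chromosome 19 had a median log2 ratio of −0.20 and the 142 on other chromosomes of −0.08. Other genes on chromosome 19 had a median of −0.09. The 57 KRAB genes of chromosome 19 had a median of −0.22, against −0.08 for the 54 KRAB genes elsewhere and −0.02 for the 12 genes of chromosome 19 without the box. Clusters on that chromosome were taken as runs of 5 or more genes of the set whose starts lay at most 1 Mb apart. ZNF45, ZNF224, ZNF234, ZNF227 and ZNF235 formed one with a median of −0.32, while 7 genes from ZNF558 to ZNF562 had a median of −0.00. The 6 genes from ZNF430 to ZNF100 had a median of −0.31, and the 9 from ZNF264 to ZNF8 of −0.19. In the cluster of 18 genes from ZNF841 to ZNF331 the median was −0.12, and ZNF331 at its end was the only gene of chromosome 19 in the set that was 1.5-fold or more higher.

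Chromosomes 3 and X stood on opposite sides. On chromosome 3, 8 of 9 genes had a ratio below 1 and the median was −0.43, where 560 other genes of that chromosome had a median of −0.03 and 54.5% of them a ratio below 1. On the X chromosome the 9 genes had a median of 0.16, where 325 other genes had −0.01. ZNF41, ZNF674 and ZNF185 were above 1.5-fold, while ZNF75D was 1.62-fold lower. The counting interval lay above 1 in 4 of the 9 and below 1 in 3. The 7 genes of chromosome 15 also had a median of 0.16, where 320 other genes had 0.05. Chromosomes 3, X and 15 were singled out after their values were seen.

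The corepressors through which KRAB proteins act were in part lower in the GGT7 library. TRIM28, the direct partner of the KRAB box, had 3018 and 1592 counts. Its level was 25.5 and 17.6 FPKM, 1.45-fold lower (1.36 to 1.54). SETDB1, the methyltransferase that TRIM28 brings, had 1004 and 712 counts and a ratio of 0.929 (0.843 to 1.02).

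Of the HP1 genes, CBX1 had 1322 and 325 counts. At 26.3 and 8.47 FPKM it was 3.10-fold lower (2.75 to 3.52), while CBX3 and CBX5 had ratios of 1.03 and 0.987. All 4 H3K9 methyltransferase genes of the list were lower, from 1.13-fold for EHMT1 to 1.40-fold for SUV39H1, and each counting interval lay below 1, as did those of 31.3% of all genes. In the HUSH complex 4 genes ran from 0.886 for PPHLN1 to 0.981 for FAM208A. The DNA methylation genes ran from 0.869 for UHRF1 to 1.05 for DNMT3B. The 11 NuRD genes ran from 0.845 for CHD3 to 1.08 for RBBP4. Over the 6 chromatin lists the median log2 ratio of 29 genes was −0.11, against −0.03 for all genes at the minimum. Of the 29, 0 were 2-fold higher and 1, or 3.45%, 2-fold lower, against 0.995% and 1.07% of all genes. A ratio below 1 was found in 24, or 82.8%, against 54.7% of all genes.

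**Figure D5:**
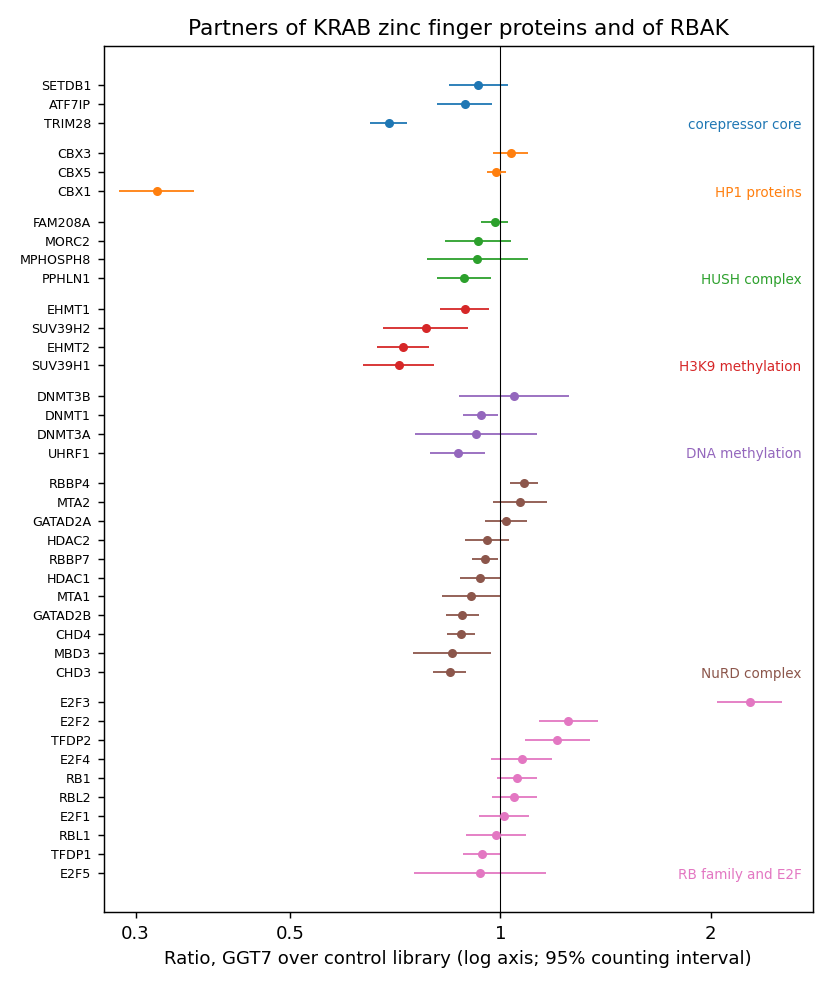
Ratio of the GGT7 to the control library (log axis, 95% counting interval as bars) for genes of the KRAB corepressor pathway and of the RB and E2F family, grouped by list. CBX1 at 3.10-fold lower and E2F3 at 2.28-fold higher stand apart from the rest, and TRIM28 lies at 1.45-fold lower.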

How the data were processed

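RNA of 2 AGS libraries was sequenced on standard Illumina libraries, per the labels' protocols, and the titles gave the groups. HISAT2, StringTie 1.3.0, edgeR and GRCh38 appear in the submitters' processing notes, without roles. The sources used here do not give the annotation, the counting tool or the strand setting, so genes that overlap another or share sequence are uncertain. For each gene the authors deposited a count and an FPKM in each library, per the file headers. Counts by the authors, plain per the file headers and whole numbers in intact lines, were used as they are and recorded as an estimated count per gene only because of 1 broken line. Of 23378 lines 2 were left out, that one and an empty one. FPKM per count differed 1.31-fold between the libraries, as do the totals, so the authors' FPKM follows the total count. The limit that a count of 0 allows, 3 counts, is 0.223 and 0.292 CPM (control, GGT7).

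The members and lists were chosen with earlier results of these data known. Ratios were formed without a pseudocount, with exact conditional (Clopper-Pearson) 95% intervals for counting error alone (reads that carry no molecular tag are not independent molecules); 2-fold was the rule of size. The interval was tried on simulated counts with counting error alone, the setting it assumes, which does not test it for these libraries. All 211 genes matched GENCODE 29, which gave positions, transcripts, fingers (a cysteine-histidine pattern) and KRAB boxes (a pattern chosen after seeing the data). The genes named are ZNF33A, ZNF33B, RBAK, the 2-fold genes, the 5 with most counts, those beside the minimum, neighbours, and the farthest of each class or list; others were named after their values were seen. Alternatives were pseudocounts, count minimums, a 1.5-fold rule, TMM (edgeR 4.0.16), DESeq2 1.42.0 size factors, median and upper-quartile scaling, and subsets of genes. The work used Python 3.11.15, pandas 2.3.3, scipy 1.17.1, statsmodels 0.14.6 (lowess span 0.3), Biopython 1.88, matplotlib 3.10.9 and R 4.3.3.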

Additional observations from a re-analysis of the deposited data

How the results depend on the processing

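No paired analysis was possible because each group had 1 library, and for the same reason no library could be left out. The log2 ratio of ZNF33B, 3.68, was 2.26 with a pseudocount of 1 FPKM and 1.01 with 5 FPKM; that of RBAK, 3.26, was 2.31 and 1.17; that of ZNF33B relative to ZNF33A, 3.37, was 2.03 and 0.90; and that of ZNF33A, 0.31, was 0.11 with 5 FPKM. A pseudocount shrinks low genes by construction. The 5 genes 2-fold higher became 3 and 2 with pseudocounts of 1 and 5 FPKM, 9 and 2 at minimums of 100 and 1000 summed counts, 18 at 1 count or more in each library, 10 at the 1.5-fold rule and 3 without ZNF33B and RBAK. The 3 genes 2-fold lower became 0 and 0, 7 and 1, 16, and 21 under the same settings up to the 1.5-fold rule. At 1000 summed counts or more the 2 and 1 were 3.51% and 1.75% of 57 genes, against 0.818% and 0.818% of other genes. The shares of all genes under the pseudocounts, at the minimum of 100 and at 1 count or more are not given. The counts under those settings therefore cannot be set beside other genes. The median log2 ratio was 0.018 at 1000 summed counts or more, above 0 where it was −0.11 over all 211 genes; the cause was not tested. Under the 4 other scalings (TMM, DESeq2 size factors, median ratio and upper quartile) the median lay between −0.10 and −0.07. The share of the set below 1 lay between 56.9% and 59.2%, against 48.5% to 52.7% of other genes. Under these scalings the 5 genes 2-fold higher stayed 5 and the 10 at 1.5-fold stayed 10. The 3 genes 2-fold lower stayed 3 under TMM and were 2 under the others. The 21 at 1.5-fold stayed 21 under TMM and were 18 under the others. With the GC and length trend removed these lower counts were 2 and 17. Removal of the GC and length trend and the set without ZNF33B and RBAK, with a median of −0.13, were chosen after seeing the data. A low count in either library widens an interval: 60 control counts of ZNF33B gave 9.78 to 16.96, and 301 summed counts of ZNF574 gave 0.557 to 0.907.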

Other observations

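Zinc finger genes of other symbols at the same count minimum were set beside the ZNF genes. The 30 ZBTB genes, which join a BTB domain to the fingers, had a median log2 ratio of −0.18, with 22, or 73.3%, below 1, against 54.7% of all genes. ZBTB4, a methyl-CpG binding repressor, had 1871 and 506 counts (control first), 22.6 and 8.03 FPKM, and was 2.82-fold lower (2.56 to 3.12). ZBTB38, a related methyl-CpG binder, had 823 and 1043 counts and a ratio of 1.66 (1.51 to 1.82), so these relatives lay on opposite sides. ZBTB26 had 326 and 412 counts and a ratio of 1.66. The 12 ZKSCAN and ZSCAN genes, whose SCAN domain joins proteins into dimers, had a median of −0.05, and the 9 ZFP genes of −0.07. In neither of these groups was a gene 2-fold apart, where 0.995% of all genes were 2-fold higher and 1.07% lower. The ZBTB, ZKSCAN, ZSCAN and ZFP genes singled out were chosen after their values were seen.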
